A study of Schizosaccharomyces pombe with 28 samples.

Results

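The chaperonin CCT, also called TRiC, is a large protein-folding machine of the eukaryotic cytosol, and in the fission yeast Schizosaccharomyces pombe its subunits are encoded by the genes cct1 to cct8. The members described here are the genes with these symbols in the platform's probe annotation. All 8 were found among 4929 genes, with 2 probes each and so 16 of 9858 probes. The data are log2 ratios between the channels of 28 two-colour arrays. Each channel was labelled from wild-type cells at early-log phase in YES, a rich medium. The strain was LJY1014, which is h- leu1-32. Every array was therefore a self-self hybridisation of separate samples of the same kind, and the 28 arrays form a single group with no treatment. The leu1-32 mutation was present in both channels throughout. The labels speak of independent cultures, but do not say which cultures met on an array.

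CCT is built of stacked rings that each hold every subunit once, so the complex needs the products of all 8 genes. By the usual Greek names, cct1 encodes the alpha subunit, cct2 beta, cct3 gamma, cct4 delta, cct5 epsilon, cct6 zeta, cct7 eta and cct8 theta. CCT binds and hydrolyses ATP, and the ATP cycle closes a built-in lid over the substrate. Actin and tubulin are the best known substrates, and prefoldin, a smaller complex, hands them to CCT unfolded. The question asked of these arrays was whether transcripts of subunits used in fixed proportion moved together from array to array.

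A log2 ratio of 0 means equal signal in both channels. Each array was centred on its median over all probes, and a gene's value is the average of its probes. Which channel is the numerator is not stated in the labels, so the sign of a ratio names no sample. Over all genes the arrays fell into 3 sets, which clustering without the 8 members also gave. The first set holds arrays 1 to 8 with 19 and 20, the second arrays 9 to 18 and the third arrays 21 to 28. The median correlation between arrays, across genes, was 0.657 within sets and 0.0381 between them. The labels do not name these sets, so they were treated as possible batches. P-values that take the 28 arrays as independent may then be too small, and results are also given by set.

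Pearson's r between subunits differed in sign and size from pair to pair and from set to set. cct1 and cct4 were positively correlated in each of the 3 sets, and cct6 was positively correlated with both in the first and the second. cct3 and cct7 were positively correlated with each other in each set, and in the first set both were negatively correlated with cct1 and cct4. In the second set these same pairs were positive, from 0.541 for cct3 and cct4 to 0.887 for cct4 and cct7. For cct5 and cct8 the probes of the gene did not follow each other, and for cct7 they did not once the mean of each set was removed. On that scale only cct1, cct2 and cct4 varied by more than their probes disagreed. A low r of a pair with any other subunit therefore does not show that its genes moved separately. The 28 pairs of subunits had a median Pearson's r of 0.130 after the mean of each set was removed, against 0.00635 over all pairs of the 4929 genes. That median was 0.0760 without array 18, 0.0381 without arrays 17 and 18, and -0.232 in the first set alone. It was 0.347 in the second set alone and 0.221 in the third alone. With set means removed it was 0.276 from probe 1 alone and 0.092 from probe 2 alone. As a cosine about 0 the median was 0.516, and 26 of 28 pairs were above 0 (92.9%, against 50.3% of all pairs). By that measure 15 pairs reached 0.5 (53.6%, against 13.7%). The cosine does not depend on the numerator, but it also reflects means away from 0 and was chosen after seeing the data.

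**Figure D1:**
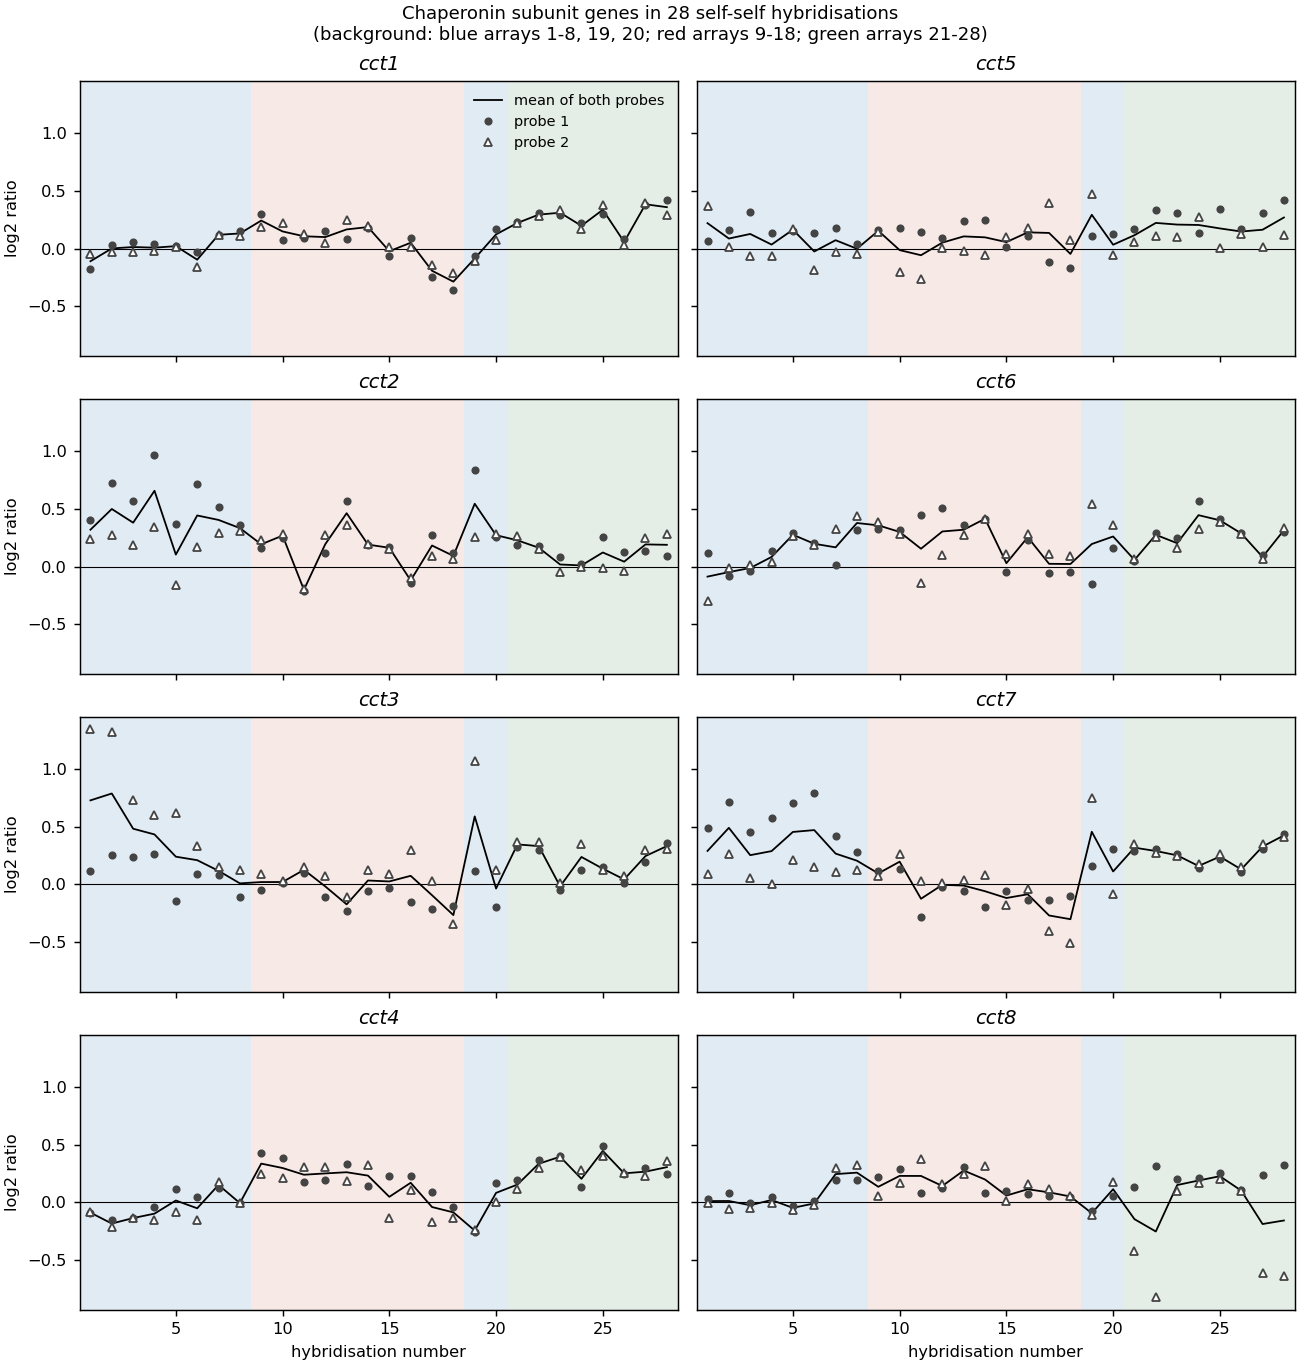
Log2 ratio of each subunit gene (y axis) in each of the 28 arrays (x axis, hybridisation number). Filled circles are probe 1, open triangles probe 2 and the line their mean, and the background colour gives the array set. The probes of cct1 stay close to each other, whereas probe 2 of cct8 falls to -0.82 in array 22 while probe 1 stays above 0.

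cct1 (SPBC12D12.03), the alpha subunit gene, ranged from -0.29 in array 18 to 0.38 in array 27, with a median of 0.11 and an SD of 0.167 (n = 28). In the first set it lay between -0.11 and 0.13, in the second between -0.29 and 0.24, and in the third between 0.06 and 0.38. All arrays of the third set were above 0, but the sets overlapped. Its probes followed each other more closely than those of any other subunit, with r = 0.872 (Spearman's rho = 0.870).

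cct4 (SPBC106.06), the delta subunit gene, ranged from -0.24 in array 19 to 0.45 in array 25, with a median of 0.16 and an SD of 0.190. It lay between -0.24 and 0.15 in the first set, between -0.09 and 0.34 in the second and between 0.16 and 0.45 in the third. All values of the third set thus lay above all those of the first, by a narrow margin. Its probes correlated at 0.789 (rho = 0.766).

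cct6 (SPBC646.11), the zeta subunit gene, was positive in 25 of 28 arrays and ranged from -0.09 in array 1 to 0.45 in array 24, with a median of 0.23 and an SD of 0.151. It was the highest of the 8 subunits in 8 arrays and the lowest in 0. Its probes averaged the same, at 0.20 each, but correlated at only 0.239 (rho = 0.359), and at 0.228 with set means removed.

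cct3 (SPBC1A4.08C), the gamma subunit gene, had the widest spread of the family, with an SD of 0.256 that exceeded 84.9% of all genes. It ranged from -0.27 in array 18 to 0.79 in array 2, with a median of 0.12. Arrays 1 to 6 and 19 lay between 0.21 and 0.79, whereas arrays 7, 8 and 20 of the same set lay between -0.04 and 0.12, with no overlap. Most of this was in probe 2, which in arrays 1 to 6 and 19 averaged 0.86 (SD 0.39, n = 7) and reached 1.35. Probe 1 averaged 0.13 (SD 0.14) in the same arrays. In arrays 7, 8 and 20 probe 2 averaged 0.14 (SD 0.01, n = 3) and probe 1 averaged -0.07 (SD 0.14). Both probes thus averaged higher in the former arrays, but by unequal amounts. Over all arrays the probes correlated at 0.514 (rho = 0.655).

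cct7 (SPBC25H2.12C), the eta subunit gene, was the subunit with the largest share of its variance between sets, at 68.0%. It ranged from -0.30 in array 18 to 0.49 in array 2, with a median of 0.22 and an SD of 0.221. It was between 0.11 and 0.49 in the first set and between 0.13 and 0.43 in the third, and in the second it was above 0 in only 2 of 10 arrays. The first and the third set each overlapped the second only through array 10, at 0.20, and array 9, at 0.10, lay below both. Its probes correlated at 0.401 (rho = 0.450) over all arrays, but at 0.0405 with set means removed, the scale on which pairs of genes are compared below. In the first set probe 1 averaged 0.49 (SD 0.21) and probe 2 averaged 0.17 (SD 0.23), while in the third they were close, at 0.26 and 0.28.

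cct2 (SPAC1D4.04), the beta subunit gene, had the highest mean of the family. It was above 0 in 26 of 28 arrays and ranged from -0.20 in array 11 to 0.66 in array 4, with a median of 0.19 and an SD of 0.196. The first set averaged 0.40 (SD 0.15, n = 10), the second 0.14 (SD 0.19, n = 10) and the third 0.12 (SD 0.09, n = 8), and all sets overlapped. Its probes correlated at 0.554 (rho = 0.508), and in the first set probe 1 averaged 0.57 against 0.22 for probe 2.

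cct5 (SPAC1420.02C), the epsilon subunit gene, had the narrowest spread of the family, with an SD of 0.0937 that exceeded only 5.44% of all genes. It ranged from -0.06 in array 11 to 0.29 in array 19, with a median of 0.12. This is the spread of an average of probes that did not follow each other. They correlated at -0.260 (rho = -0.221) and had SDs of 0.131 and 0.172 on their own.

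cct8 (SPBC337.05C), the theta subunit gene, ranged from -0.25 in array 22 to 0.28 in array 13, with a median of 0.10 and an SD of 0.146. Its 4 lowest values were in arrays 21, 22, 27 and 28, where it was also the lowest of all subunits. In those arrays probe 2 lay between -0.82 and -0.43, while probe 1 lay between 0.14 and 0.32. In arrays 23 to 26 of the same set the probes lay close, at 0.11 to 0.26 for probe 1 and 0.10 to 0.20 for probe 2. The low values of cct8 thus appeared in probe 2 alone. Over all arrays its probes correlated at -0.238 (rho = 0.143).

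Whether a gene varied between arrays by more than its probes disagreed was tested with an F ratio over all genes, with Benjamini-Hochberg adjustment and a threshold of 0.05. The test called 53.2% of all genes and 5 of the 8 subunits, a share near the background. The adjusted p of this F test over 28 arrays was 1.51e-08 for cct1, 2.58e-06 for cct4, 0.0118 for cct2, 0.0344 for cct7 and 0.0412 for cct3. It was 0.158 for cct6, 0.835 for cct8 and 0.931 for cct5. Without array 17, and likewise without array 18, the calls for cct3 and cct7 were lost and 3 were left. The call for cct3 was also lost without any 1 of arrays 3, 4, 12, 13 and 20, and that for cct7 without array 15. With the mean of each set removed the test called 23.4% of all genes and 3 subunits, cct1 (adjusted p = 9.92e-06), cct4 (0.00935) and cct2 (0.0207). Without array 11 the call for cct2 was lost there. With the means of the 5 subsets described below removed it called 15.4% of all genes and 3 subunits. The test does not cover an error that both spots of an array share. The median SD of the 8 genes was 0.178 against 0.165 over all genes.

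The closest pair was cct1 and cct4. With set means removed they correlated at r = 0.797 over 28 arrays (rho = 0.782), above 99.9% of all pairs of genes, and at 0.690 without the 2 arrays farthest from the median. Within the sets alone r was 0.685 in the first, 0.970 in the second and 0.487 in the third. Any probe of cct1 against any probe of cct4 gave between 0.578 and 0.728. Among the 4928 other genes ranked by likeness, cct4 stood in place 3 for cct1, and cct1 in place 16 for cct4. No other subunit was among the 50 genes (the closest 1%) nearest to any subunit, so 2 of the 56 possible places were filled. Correlations across arrays are given as descriptions without a p-value, since arrays of a set are not independent and the genes of a pair share the array and its centring.

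cct6 came next, with r = 0.617 to cct4 and 0.520 to cct1. In the second set these were 0.876 and 0.879, and in the first 0.481 and 0.511, but in the third they were 0.345 and -0.168. For cct8 the values were 0.507 with cct4 and 0.501 with cct6, with the disagreement of its probes as given above. In all, 5 of 28 subunit pairs (17.9%) reached r = 0.5, against 4.34% of all pairs, and 18 of 28 (64.3%) were above 0, against 50.8%. The pairs share members, so these are not counts of separate observations.

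**Figure D2:**
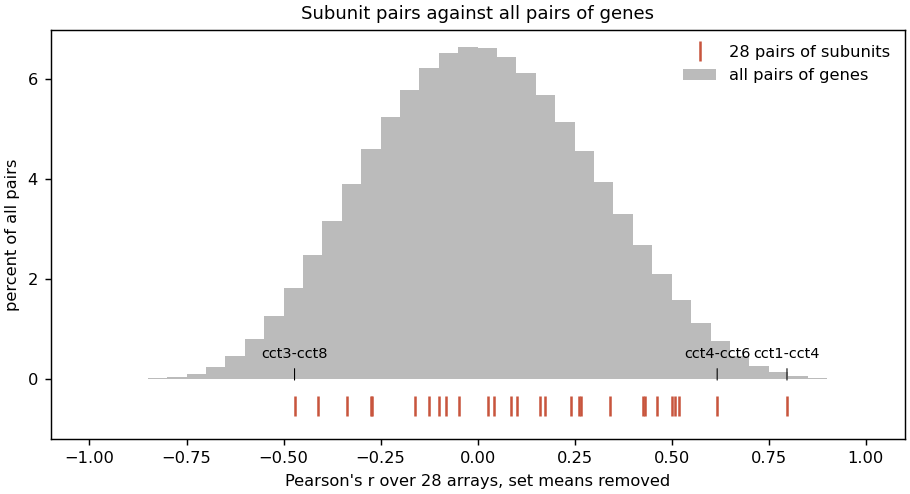
Histogram of Pearson's r over 28 arrays, with set means removed (x axis), for all pairs of the 4929 genes (grey, y axis in percent of all pairs), with the 28 subunit pairs as red marks below. The marks run from -0.472 for cct3 and cct8 to 0.797 for cct1 and cct4.

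The sets gave different pictures of how the subunits related to each other. In the first set all 6 pairs among cct1, cct4, cct6 and cct8 were positive, with a median r of 0.598. All 16 pairs between these genes and cct2, cct3, cct5 and cct7 were negative, with a median of -0.526. In the second set 15 of these 16 pairs were above 0, with a median of 0.311. The lowest values of the first set were those of cct3 with cct6 (r = -0.839) and with cct4 (r = -0.804). The grouping was drawn from these same values, so it is a description. Within the first set, arrays 1 to 6 and 19 are known from earlier results to differ from arrays 7, 8 and 20 over many genes. In the former cct4 averaged -0.11 (SD 0.09, n = 7), cct8 averaged -0.02 (SD 0.04) and cct3 averaged 0.50 (SD 0.22). In the latter cct4 averaged 0.08 (SD 0.08, n = 3), cct8 averaged 0.21 (SD 0.08) and cct3 averaged 0.03 (SD 0.08). cct1 averaged -0.04 (SD 0.06) in the former and 0.12 (SD 0.01) in the latter. For cct1, cct3 and cct8 these arrays did not overlap, and for the other subunits they did. The share of all genes without overlap was not counted.

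In the second set 26 of 28 pairs were positive (92.9%, against 49.9% of all pairs), with a median r of 0.347. cct7 there correlated with cct4 at 0.887 and with cct1 at 0.847, and cct3 correlated with cct4 at 0.541. Each had the opposite sign to the first set. Over all sets, with set means removed, the probe combinations gave -0.0582 to 0.335 for cct4 and cct7. They gave 0.0904 to 0.452 for cct1 and cct7, and -0.410 to -0.0537 for cct3 and cct4. Without the 2 arrays farthest from the median of the gene named first, these pairs stood at -0.0172, 0.162 and -0.211. In array 18 cct1, cct3 and cct7 all reached their lowest value, and the mean of the 8 subunits was below 0 only in arrays 17 (-0.02) and 18 (-0.10). Without these arrays the second set had a median r of 0.296 with 20 pairs above 0, and cct1 and cct4 correlated at 0.904. Over all sets 15 of 28 pairs were above 0 without them, with a median r of 0.0381 (all pairs 0.00640). The share of all pairs above 0 was not counted without these arrays. In the third set 16 of 28 pairs were above 0 (57.1%, near the 50.3% of all pairs) and the median was 0.221. cct2 correlated there with cct7 at 0.799, with cct3 at 0.761 and with cct8 at -0.806. The last value includes the arrays where cct8 was low in probe 2 alone, and over all sets the probe combinations of cct2 and cct8 gave -0.343 to 0.540.

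**Figure D3:**
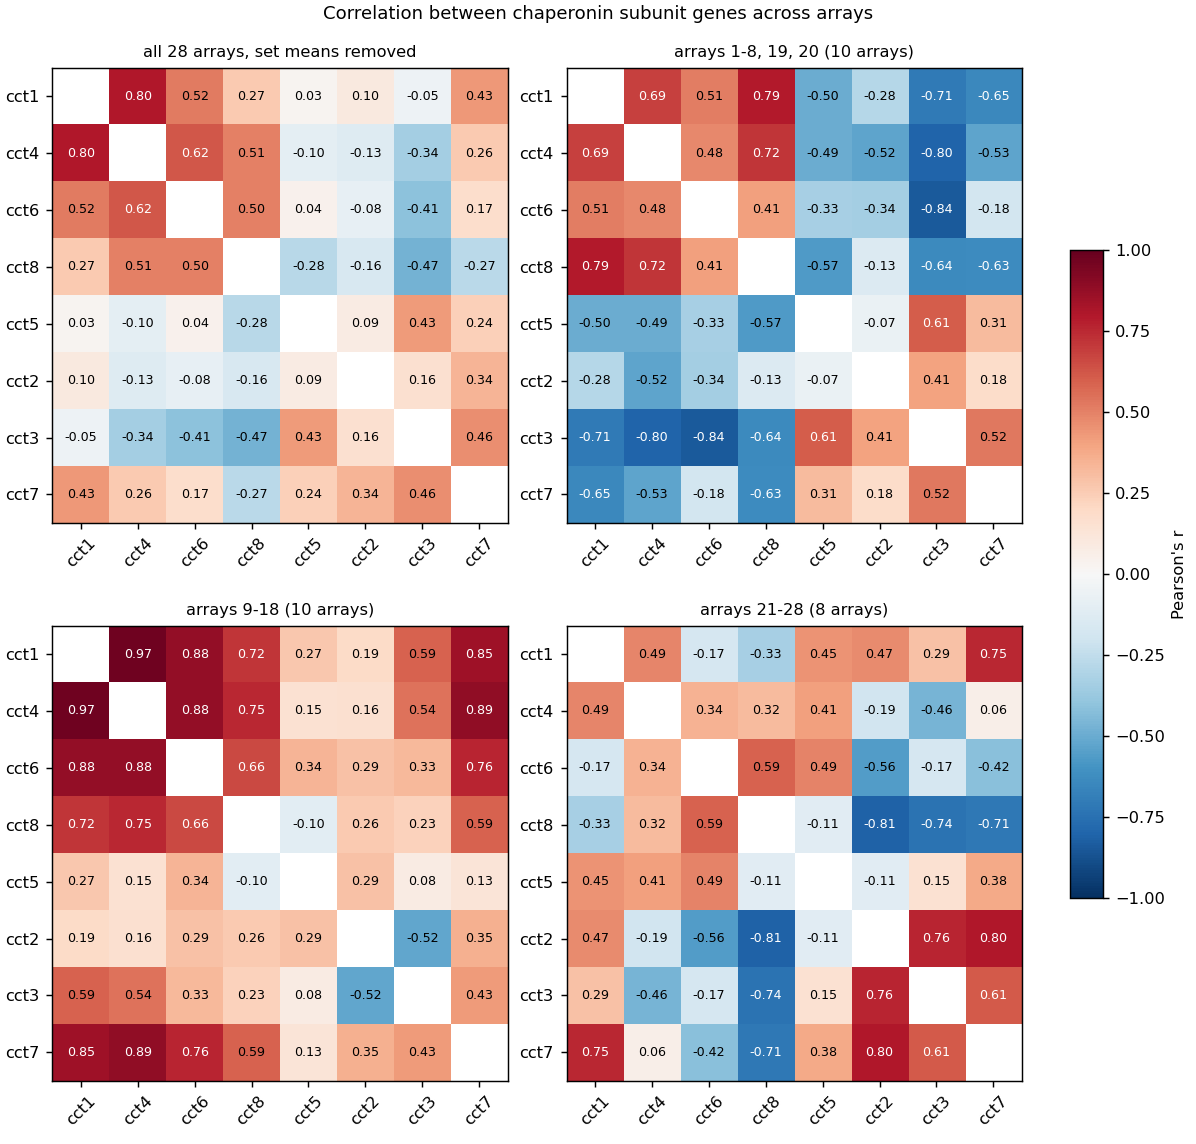
Pearson's r between subunit genes (rows and columns) over all 28 arrays with set means removed, and within each array set. Red is positive and blue negative. The first set shows opposing blocks, with -0.839 for cct3 and cct6, and the second is mostly positive, with 0.970 for cct1 and cct4.

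Earlier results divided the arrays further, into 5 subsets: arrays 1 to 6 with 19, arrays 7, 8 and 20, arrays 9 to 18, arrays 21, 22, 27 and 28, and arrays 23 to 26. Clustering at 5 groups did not give these subsets. It kept the first set whole and split arrays 23 to 26. With the mean of each subset removed, the median r over the 28 pairs was 0.224 (all pairs 0.00380). On that scale 23 pairs were above 0 (82.1%, against 50.5% of all pairs) and 7 reached 0.5 (25%, against 3.63%). cct1 and cct4 stood at 0.821, cct1 and cct7 at 0.678, cct4 and cct7 at 0.650, cct2 and cct8 at 0.270, and cct3 and cct4 at -0.0105. The lowest pair was cct5 and cct8, at -0.207. Of the 16 pairs that were negative in the first set 12 were above 0 over all 28 arrays, with a median of 0.184. With only set means removed 6 of them were above 0, with a median of -0.0897. Both values include the second set, where 15 of these pairs were positive, so they do not describe the first set alone. Neighbours in the ring, by the order 6, 8, 7, 5, 2, 4, 1, 3 known from budding yeast and mammalian CCT, were also compared. With set means removed r had a median of 0.0191 over the 8 neighbouring pairs, of which cct1 and cct4 are 1, and 0.167 over the 20 other pairs. This difference was not tested.

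The gap between the highest and the lowest subunit of an array had a median of 0.45 on the log2 scale and ran from 0.25 in array 26 to 0.97 in array 2. In arrays 1 to 6 and 19 it was between 0.50 and 0.97, and in arrays 7, 8 and 20 between 0.31 and 0.38. In arrays 21, 22, 27 and 28, where cct8 was lowest, it was between 0.49 and 0.59, while arrays 23 to 26 had gaps from 0.25 to 0.44. With cct8 taken from probe 1 alone, arrays 21, 22, 27 and 28 had gaps from 0.17 to 0.30, within or below the range of arrays 23 to 26. With cct3 taken from probe 1 alone, arrays 1 to 6 and 19 had gaps from 0.43 to 0.79 and arrays 7, 8 and 20 from 0.33 to 0.49, which overlapped. The mean of the 8 subunits ran from -0.10 to 0.26, with a median of 0.16.

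All 8 subunits averaged above 0 in the deposited direction over the 28 arrays. In a limma fit over all genes each passed an adjusted p of 0.05, against 28.6% of all genes above 0 and 23.3% below. By limma the mean was 0.23 for cct2 (SE 0.04, adjusted p = 6.76e-06), 0.20 for cct6 (SE 0.03, adjusted p = 1.25e-06) and 0.18 for cct3 (SE 0.05, adjusted p = 0.00195). It was 0.17 for cct7 (adjusted p = 0.000813), 0.13 for cct4 (0.00351), 0.11 for cct5 (2.76e-05), 0.10 for cct1 (0.00885) and 0.07 for cct8 (0.0355). No subunit was above 0 in all 28 arrays, which 0.487% of genes were, and none was below 0 in all, which 0.446% were. With the 3 sets as a random block 0 of 8 passed in limma, with adjusted p from 0.214 for cct2 to 0.698 for cct8, against 0.69% of all genes above 0 and 0.812% below. At an unadjusted p under 0.05 that block fit had 4 of the 8, against 14.6% of all genes in either direction.

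**Figure D4:**
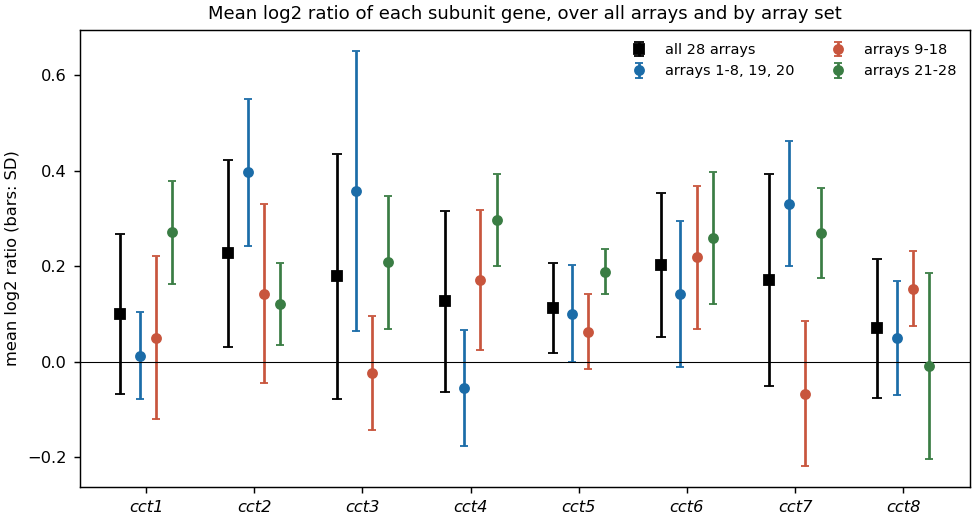
Mean log2 ratio of each subunit gene (y axis) over all 28 arrays (black squares) and in each array set (coloured circles), with bars of 1 SD. All 8 black squares lie above 0, but cct4 in the first set (-0.06), cct3 and cct7 in the second (-0.02 and -0.07) and cct8 in the third (-0.01) lie below.

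Fitted by set, limma placed 5 of 8 subunits above 0 in the first set (35.2% of all genes above 0, 30% below), which were cct2, cct3, cct5, cct6 and cct7. In the second set 4 passed (32.9% of all genes above, 33% below), which were cct2, cct4, cct6 and cct8. In the third 7 passed (12.3% above, 14.1% below), all but cct8. cct2 and cct6 passed in each of the 3 sets. No subunit passed below 0 in a set. The difference between sets was not tested.

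Prefoldin delivers substrates to CCT. All 6 of its genes, pfd1 to pfd6, varied by more than their probes disagreed, against 53.2% of all genes. With set means removed pfd1, pfd4, pfd5 and pfd6 did so, against 23.4% of all genes. Their median SD was 0.278. All 15 pairs were positive with set means removed, from 0.388 to 0.758 with a median of 0.617. The medians within the sets were 0.639, 0.736 and 0.568, where those of the CCT pairs were -0.232, 0.347 and 0.221. Over all arrays the probes of a gene correlated at 0.702 (pfd1) to 0.946 (pfd4) for prefoldin, but at -0.260 (cct5) to 0.872 (cct1) for the subunits. The families thus also differed in how well their probes followed each other. The difference between their medians was not tested. In limma 5 of 6 prefoldin genes passed above 0 without a block (28.6% of all genes) and 0 with it (0.69%). The prefoldin genes correlated with cct4 at 0.316 (pfd1) to 0.587 (pfd6), and with cct3 at -0.686 (pfd2) to -0.365 (pfd6). With cct4 these values were 0.605 to 0.873 in the first set, -0.00393 to 0.550 in the second and 0.117 to 0.760 in the third. With cct3 they were -0.821 to -0.569 in the first set, -0.500 to 0.152 in the second and -0.812 to -0.234 in the third. With the means of the 5 subsets removed they lay between 0.140 and 0.615 for cct4 and between -0.562 and -0.119 for cct3.

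Of the cytosolic Hsp chaperones and co-chaperones listed, 14 of 15 were measured. Of these, 12 passed the probe test (53.2% of all genes did), and 9 with set means removed (23.4%). wos2, which encodes the p23 co-chaperone of Hsp90, ranked first of 4928 genes for cct4, with r = 0.892 (rho = 0.912). Within the sets r was 0.928, 0.931 and 0.837, and any probe of cct4 against any probe of wos2 gave 0.689 to 0.830. wos2 had an SD of 0.376 and ranged from -0.54 in array 19, where cct4 was lowest too, to 0.72 in array 23. sti1, which encodes the adaptor between Hsp70 and Hsp90, correlated with cct4 at 0.783 and ranked 26. The other measured genes of this list ran from -0.304 (sks2) to 0.554 (hsp104) with cct4. The Hsp90 gene itself, hsp90, stood at 0.0616. With cct1 the values were 0.620 for wos2 and 0.473 for sti1. By set they were 0.636, 0.876 and 0.115 for wos2, and 0.545, 0.833 and 0.183 for sti1, so both were weak in the third set.

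hsp104, the disaggregase gene, had the lowest r of all 4928 genes with cct3, at -0.769 (rho = -0.781). It was -0.923 in the first set, -0.206 in the second and -0.454 in the third, and -0.539 with the means of the 5 subsets removed. All probe combinations lay between -0.763 and -0.530. The other measured genes of this list ran from -0.441 (wos2) to 0.538 (sks2) with cct3. wos2, sti1 and hsp104 were singled out after their values were seen. By limma, 3 of the 14 chaperone genes passed above 0 (sks2, cdc37 and hsf1), against 28.6% of all genes. Below 0 passed 5 (hsp104, psi1, hsp16, aha1 and mas5), against 23.3%. With the sets as a block 0 passed (0.69% of all genes above 0, 0.812% below).

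**Figure D5:**
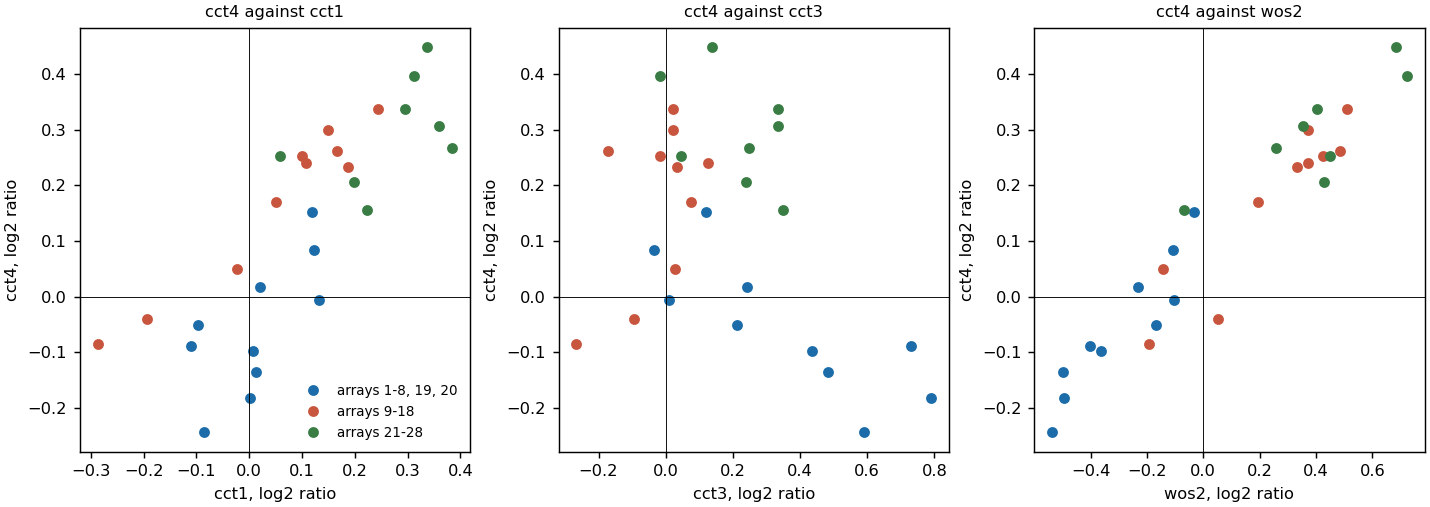
Log2 ratio of cct4 (y axis) against that of cct1, cct3 and wos2 (x axes), with 1 point per array coloured by array set and no set means removed. cct4 rises with cct1 and with wos2, and falls with cct3 in the first set, where r was -0.804.

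Of 7 tubulin and actin genes 6 were measured, and their SDs ran from 0.119 for act1, the actin gene, to 0.152 for atb2, an alpha-tubulin gene. Variation passed the probe test in atb2 and arp3 (53.2% of all genes passed), and in 0 with set means removed (23.4%). atb2 averaged -0.11 (SE 0.03, adjusted p = 0.00159 in limma and 0.412 with the block) and correlated with cct4 at -0.499. The beta-tubulin gene nda3 averaged 0.01 and act1 averaged 0.05, and neither passed. Of 5 genes for WD-repeat proteins taken as substrates, slp1 (-0.22) and srw1 (-0.11), both activators of the anaphase-promoting complex, passed below 0 in limma. Of all genes 23.3% passed below 0. None of these 5 passed above 0 (28.6% of all genes), and with the block 0 passed (0.69% above, 0.812% below).

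Among 5 genes of the tubulin folding pathway that acts after CCT, alp41 averaged -0.48 (SE 0.05, adjusted p = 6.08e-09 in limma). It also passed with the sets as a block (adjusted p = 0.00191), with means of -0.64 in the first set, -0.64 in the second and -0.10 in the third. alp11 (0.11) and alp31 (0.10) passed above 0 without the block (28.6% of all genes did), and alp1 and alp21 did not pass. In the mitochondrial chaperonin, a relative of CCT in another compartment, mcp60 had an SD of 0.316 and correlated with cct1 at 0.512. Its lid gene hsp10 had an SD of 0.123, and the genes correlated with each other at -0.287.

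The 10 genes outside the family with the highest r to the mean of the 8 subunits, with set means removed, began with nup61, a nucleoporin gene (0.802), and rna1, the gene of the Ran GTPase-activating protein. They went on with iss1 (0.791), ism1 (0.787), ade9 (0.781), zng1 (0.765), SPAC10F6.17C (0.754), rpt5, a proteasome ATPase gene (0.751), mrpl22, a mitochondrial ribosomal protein gene (0.748), and phf2 (0.743). Without the 2 arrays farthest from the median of that mean, r lay between 0.584 and 0.739. With set means removed, iss1, ism1 and ade9 passed the probe test, against 23.4% of all genes. The r of these 10 genes with cct1 was between 0.386 and 0.799, and with cct3 between 0.0178 and 0.329. Among the subunits themselves, r with the mean of the other 7 ran from 0.635 for cct1 and 0.550 for cct7 down to -0.0129 for cct8 and -0.104 for cct3.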

How the data were processed

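The authors deposited log2 ratios between channels, which the labels describe as medians. Per the labels, RNA came from a hot-phenol protocol, oligo-dT-primed cDNA carried Cy3 or Cy5, a GenePix 4000A scanned the slides, and GenePix Pro 4.0 gave intensities. Background was subtracted, and marked or dim spots were taken out. The table holds 0 missing values. Spot intensities were not used, signal over background is unknown, and the number of arrays limits the precision. Channel order and dye swaps are unknown. Array medians ran from -0.293 (array 27) to 0.010.

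Of 4929 genes, 4816 had 1 symbol and 4791 matched the RefSeq gene table, used for names only. Centring used the median of all probes of an array. Means against 0 were fitted by limma (version 3.58.1, R 4.3.3) with a robust prior, two-sided, and Benjamini-Hochberg adjustment over all genes, with and without the 3 sets as a random block (correlation 0.482). The probe test is an upper-tail F ratio. Scripts were tested on simulated data. Clustering at 5 groups did not give the 5 subsets, which come from earlier results.

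Named genes were all members, the 10 most like their mean, and lists of prefoldin, tubulin folding, substrate and chaperone genes. Prefoldin was completed by the symbols pfd1 to pfd6, since the tables hold no descriptions. The members and lists were chosen with earlier results of these data known. Alternatives concerned centring, scaling, single probes, array sets and left-out arrays.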

Additional observations from a re-analysis of the deposited data

How the results depend on the processing

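Arrays of a set resemble each other, so the 28 arrays carry fewer independent values than their number, and signal over background could not be judged. The number of subunits above 0 in limma was 8, against 5 in the first set alone, 4 in the second alone and 7 to 8 with any 1 array left out. With the 3 sets as a random block it was 0 (0.69% of all genes passed above 0). With the 5 subsets as the block it was 1 (cct7, adjusted p = 0.0488 in limma), and the share of all genes was not counted there. At an unadjusted p under 0.05 that subset fit had 7 of the 8, against 21.3% of all genes in either direction. Means changed sign for cct3 (-0.0243) and cct7 (-0.0674) in the second set, cct4 (-0.0554) in the first and cct8 (-0.00877) in the third, and none of these passed there. With no centring cct1 (adjusted p = 0.0607) and cct8 (mean 0.0423) no longer passed in limma. cct1 was also lost without arrays 25 to 28 (adjusted p = 0.0625), and cct8 with each array scaled by its median absolute deviation (0.0761) or without any 1 of arrays 7 to 14 and 23 to 25. With 1 probe cct3 (probe 1, 0.292), cct5 (probe 2, 0.118) and cct8 (probe 2, 0.922) did not. The number past the probe test was 5 and ran from 3 to 6 with 1 array left out, and with set means removed it was 3 and ran from 2 to 4. The median SD was 0.178 and became 0.127 with set means removed, where that of all genes was 0.120. The median r of 0.130 became -0.232 in the first set alone, 0.347 in the second alone and 0.221 in the third alone. It ran from 0.0760 to 0.176 with 1 array left out. With no centring it was 0.2725, where that of all pairs was 0.165, and with scaled arrays it was 0.0774. As a cosine about 0, which does not depend on the numerator and also reflects means away from 0, it was 0.516 (all pairs 0.00424). Subunits among the closest 1% of genes filled 2 places, 4 with the 5 subsets removed, 4 by the cosine and 2 with any 1 array left out. The cosine, the left-out arrays and the gaps from 1 probe were chosen after seeing the data. No paired analysis was possible because all arrays belong to 1 group.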
